A study of Mus musculus with 8 samples.

Results

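The miRNAs made from the Mir193 and Mir365 hairpins were followed in skeletal muscle of diabetic and control mice, on 8 Agilent arrays that carried probes for 567 mouse miRNAs. The group holds the 4 array entries mmu-miR-193, mmu-miR-193*, mmu-miR-193b and mmu-miR-365, taken by name and written from here on without the mouse prefix. They were chosen with the difference between diabetic and control arrays already known. Their differences, intervals and fits in that contrast are therefore a description, and no test of them is taken as support. The study compared obese diabetic C57BL/KsJ db/db mice, which lack a working leptin receptor, with normal C57BL/KsJ db+ mice, and 4 arrays belonged to each group. The titles, descriptions and group entries of the samples name the same groups, but the strain entries have the genotypes the other way round: control samples carry db/db there and diabetic samples db+. Every direction given here is diabetic against control by title. Which muscle was used, and the age and sex of the mice, are not given in the sources used here. Nothing says that the 4 arrays of a group came from 4 separate mice, so the spread between them may be technical.

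A miRNA is cut from a hairpin precursor as a duplex, and usually 1 strand of it is kept in an Argonaute protein while the other, the star strand, is degraded. The kept strand finds mRNAs mainly through its seed, bases 2 to 8 from the 5′ end, and lowers their translation and stability. miRNA hairpins that lie close together are often cut from 1 primary transcript, and miR-193b and miR-365 are a known case, best studied in the formation of brown fat cells. miR-193, now named miR-193a-3p, is known as a repressor of the survival factor Mcl1 and the receptor kinase Kit.

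The mature sequences show which members share targets by seed and which hairpins they come from. All 4 array entries matched a mature miRNA of RefSeq (GRCm38.p6), and the seed is written in capitals:
miR-193: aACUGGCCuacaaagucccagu
miR-193b: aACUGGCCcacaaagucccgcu
miR-365: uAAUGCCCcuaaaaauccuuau
miR-193*: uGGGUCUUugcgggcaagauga

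miR-193 and miR-193b have the same seed, ACUGGCC, and are the only mature miRNAs of the RefSeq table with it. They are identical at 19 of 22 positions, and the changes from miR-193 to miR-193b, counted from the 5′ end, are U9C, A20G and G21C. All 3 lie outside the seed. The seeds of miR-365 and miR-193* were each found in 1 mature miRNA of the table. Probe sequences were not analysed here, and whether probes for miR-193 also bind miR-193b was not tested.

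The hairpins show how the 4 members are arranged in the genome. They fall into pairs, and each pair holds 1 Mir193 and 1 Mir365 hairpin on the plus strand. In the hairpin sequences from RefSeq (GRCm38.p6) the mature miR-193, miR-193b or miR-365 is in capitals:
Mir193a: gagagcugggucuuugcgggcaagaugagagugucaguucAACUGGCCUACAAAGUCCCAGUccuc
Mir365-2: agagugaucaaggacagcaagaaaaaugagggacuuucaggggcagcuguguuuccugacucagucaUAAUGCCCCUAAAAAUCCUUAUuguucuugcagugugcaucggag
Mir193b: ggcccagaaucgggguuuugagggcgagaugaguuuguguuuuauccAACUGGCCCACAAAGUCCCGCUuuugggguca
Mir365-1: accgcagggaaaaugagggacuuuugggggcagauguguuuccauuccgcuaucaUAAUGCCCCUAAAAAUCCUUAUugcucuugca

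Mir193a and Mir365-2 lie on chromosome 11, 14.4 kb apart. Neither overlaps another gene of the RefSeq table, and the nearest genes are the Gm11205 gene, 6.95 kb from Mir193a, and 9130204K15Rik, 19.3 kb from Mir365-2. Mir193b and Mir365-1 lie on chromosome 16, 4.24 kb apart, and both fall within the spans of the genes Gm32817 and Gm53058, although the table does not say whether in an exon or an intron. No coordinates are given because the array design names the mm9 build. The star strand miR-193* comes from the other arm of Mir193a. Mature miR-365 is the same from both of its hairpins, so the array cannot apportion its signal between chromosome 11 and chromosome 16. In the table miR-193 has 1 hairpin, on chromosome 11, and miR-193b has 1, on chromosome 16.

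Each array received 100 ng of total RNA. As a log2 value, the 75th percentile of an array's signal, taken over probes detected everywhere, ran from 7.78 on diabetic 4 to 9.27 on control 2, and between 102 and 147 miRNAs were detected per array. Levels were divided by that percentile and are given as log2 of the result, and a test was made for the 126 miRNAs that reached detection on 4 or more of the 8 arrays. The spread was larger on the control arrays for 113 of these 126. The control arrays formed slide row 1 and the diabetic arrays slide row 2, so row and group cannot be told apart. The tissue carried the markers of muscle. Of 7 skeletal muscle miRNAs 6 were tested, and miR-499 was not detected. Of these, 0 passed the limma threshold given below, where 4.76% of all tested miRNAs passed in the higher direction and 0% in the lower. With so few miRNAs, nothing is read from this count. The summed level on the scaled linear scale was 53.0 to 104 on control and 78.3 to 107 on diabetic arrays. The leading members of this list were miR-133b, at a log2 level of 5.06 on control and 5.17 on diabetic arrays, and miR-1, at 4.62 and 4.96.

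The level of miR-193 was higher in diabetic than in control muscle by 2.24-fold, while its genomic neighbour miR-365 had 1.29-fold and its seed relative miR-193b 1.17-fold, both with overlapping groups. Of the 3 members that were tested, 1, miR-193, passed the limma threshold of 0.05 after Benjamini-Hochberg adjustment, where 4.76% of all tested miRNAs passed in the higher direction and 0% in the lower. Nothing is read from this count, since the members were chosen on it. miR-193 passed in 10 of 18 alternative fits and in 2 of the 8 that left out 1 array, and it did not pass without scaling between arrays. Apart from these 18 fits, it did not pass without the filter on dim miRNAs, but did among the 95 detected on all 8 arrays. For the same reason these outcomes show only dependence on the processing and are no support for the difference. The lowest diabetic array exceeded the highest control array for 1 of the 3, where 7.94% of all tested miRNAs did so and 8.73% had groups apart in either direction. In bulk tissue, fewer cells of a type and less RNA per cell cannot be told apart.

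miR-193 had a log2 level of −2.25, −2.60, −1.46 and −1.90 on control arrays 1 to 4, and of −1.08, −0.94, −0.73 and −0.81 on diabetic arrays 1 to 4. The groups did not overlap, and the control arrays were spread over a wider range than the diabetic arrays. The group means were −2.05 ± 0.49 and −0.89 ± 0.15 (SD, n = 4), a log2 difference of 1.16 (SE 0.26, 95% interval 0.60 to 1.72). The interval on the linear scale was 1.52-fold to 3.30-fold, and the difference had rank 4 from the largest among the 126 tested miRNAs. Before any scaling between arrays the signal was 64.7, 102, 122 and 87.7 on the control arrays and 170, 250, 249 and 125 on the diabetic arrays. The unscaled groups did not overlap either, although diabetic 4 came close to control 3. The mean signal was 94.0 ± 24.1 on control and 199 ± 61.7 on diabetic arrays (SD, n = 4).

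The strand partner miR-193* was not seen. None of its 4 probes was detected on any of the 8 arrays, and 0 of 156 spots were well above background. Its probe signals ran from −10.4 to 5.24, where the lowest signal of any detected mouse probe was 11.5. It therefore has no level and no fold here, and it was not tested. So the other arm of the Mir193a hairpin gave no value to set beside miR-193.

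miR-193b, which shares the seed of miR-193, had a log2 level of −1.07, −2.01, −1.19 and −1.06 on the control arrays and of −0.89, −1.13, −1.52 and −0.88 on the diabetic arrays. The groups overlapped, and control 2 lay well below the other control arrays. The means were −1.34 ± 0.45 and −1.10 ± 0.30 (SD, n = 4), a log2 difference of 0.23 (SE 0.26, 95% interval −0.35 to 0.81), or 1.17-fold with an interval of 0.786 to 1.75. Its unscaled signal was close to constant over the control arrays, at 146, 153, 147 and 156, and ran more widely over the diabetic arrays, at 194, 219, 144 and 120. The low scaled value of control 2 came from the brightest array, where the unscaled signal of miR-193b lay within the range of the other control arrays. Without control 2 the log2 difference was 0.0060, and without control 2 and diabetic 4 together it was −0.07, so the sign of the difference depended on these arrays.

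miR-365, the neighbour of both, had a log2 level of −2.90, −4.19, −3.54 and −3.20 on the control arrays and of −2.87, −3.30, −3.39 and −2.78 on the diabetic arrays. The lowest control array was again control 2, and the groups overlapped. The means were −3.46 ± 0.56 and −3.09 ± 0.31 (SD, n = 4), a log2 difference of 0.37 (SE 0.29, 95% interval −0.26 to 1.01), or 1.29-fold with an interval of 0.834 to 2.01. Its unscaled signal was 41.3, 33.8, 28.8 and 35.6 on the control arrays and 49.0, 48.6, 39.4 and 32.0 on the diabetic arrays. The log2 difference was 0.13 without control 2, and 0.02 without control 2 and diabetic 4 together. Beside this, the log2 difference of miR-193 was 0.98 without control 2.

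**Figure D1:**
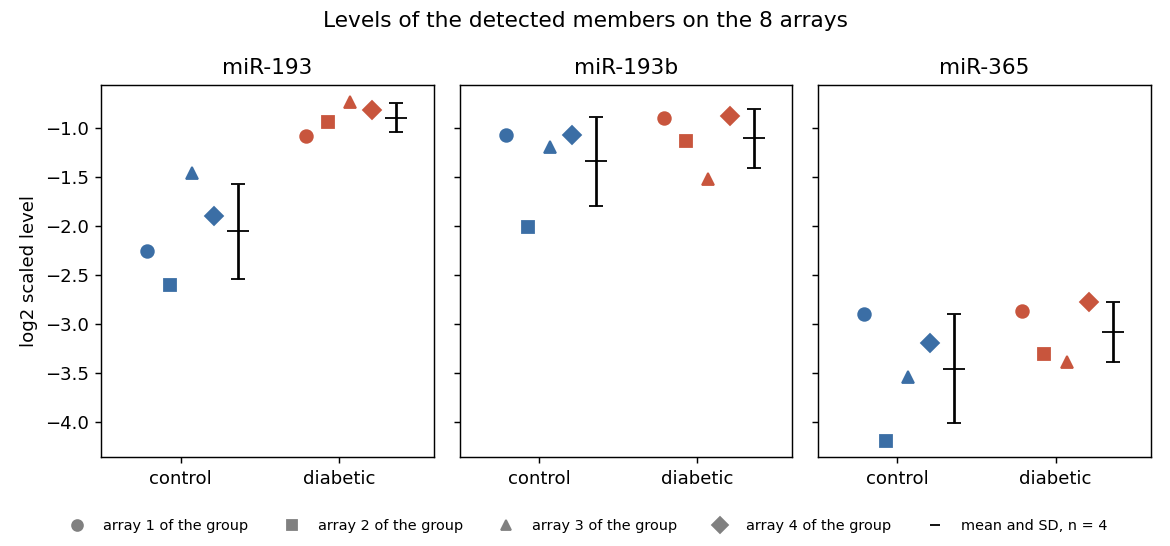
The log2 level of each tested member relative to the array's 75th percentile, on 4 control and 4 diabetic arrays, with points for arrays and a bar with its error for the group mean ± SD. The diabetic arrays of miR-193 lie between −1.08 and −0.73, all above the control arrays at −2.60 to −1.46, while the groups overlap for miR-193b and miR-365.

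The array carried 2 probes with 10 spots each for each tested member. For miR-193, probe A_54_P2375 had signals of 120 to 225 on control and 231 to 467 on diabetic arrays, was detected on every array, and gave a log2 difference of 1.16. Probe A_54_P2374 was dimmer, with 9.04 to 18.5 on control and 19.0 to 33.1 on diabetic arrays, and its measured values gave 1.24. Only 8 of its 37 control spots were well above background against 33 of 35 diabetic spots, and it was detected on 1 control and 4 diabetic arrays. Its difference therefore has no certain size and is not used beside that of A_54_P2375. Neither probe's signals overlapped between the groups. The spots of A_54_P2375 on 1 array had a median coefficient of variation of 6.16% over the 8 arrays, which is the technical spread of repeat spots and not that between samples.

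The probes of miR-193b gave log2 differences of 0.25 and 0.13. Probe A_54_P3061 had signals of 236 to 257 on control and 200 to 352 on diabetic arrays, and A_54_P3060 had 55.5 to 56.9 and 39.0 to 86.1. Both were thus nearly level over the control arrays before scaling, and both ranged above and below that level on the diabetic arrays. The probes of miR-365 gave 0.38 and 0.36, with signals of 31.9 to 43.8 and 25.8 to 38.9 on control and of 34.6 to 55.0 and 29.4 to 45.9 on diabetic arrays. All 4 of these probes were detected on every array. None separated the groups.

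**Figure D2:**
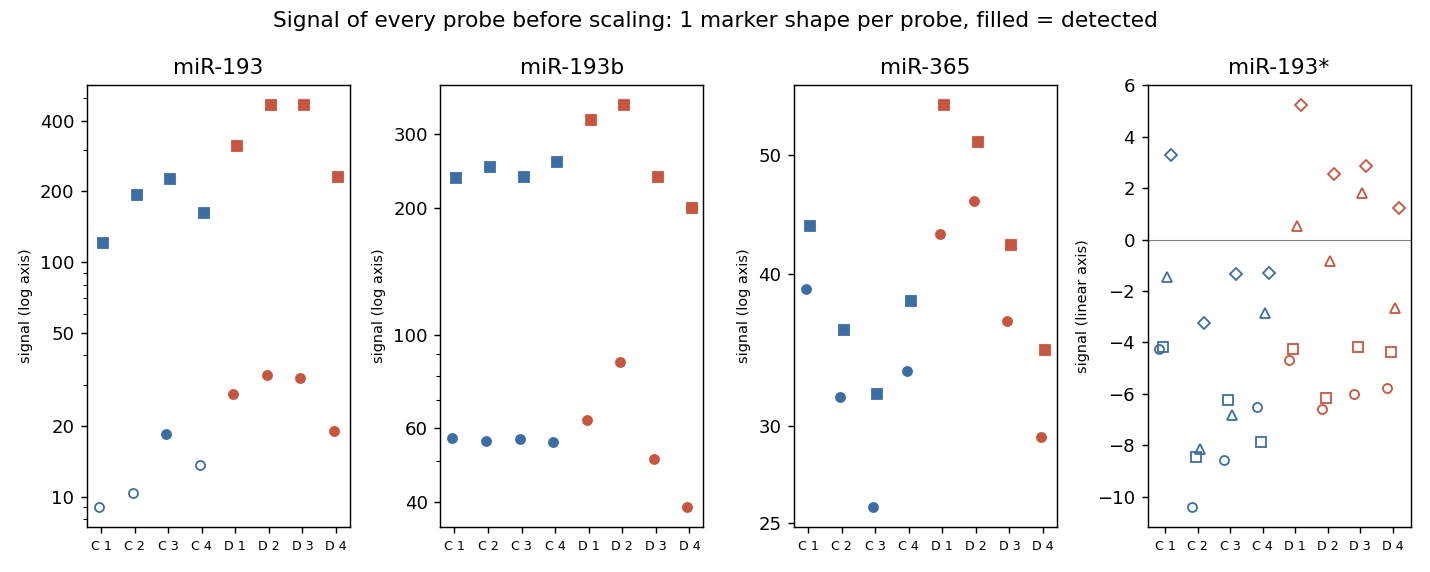
Signal of every probe of the 4 members before scaling, on control (C, blue) and diabetic (D, red) arrays 1 to 4, with 1 marker shape per probe and filled markers for detected probes. The 3 left panels have a log axis and the right panel a linear one. Both probes of miR-193 are higher on every diabetic array than on any control array, although A_54_P2374 was detected on only 1 control array, and the probes of miR-193* stay between −10.4 and 5.24 without detection.

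The ratio of 2 members on the same array does not depend on the scaling between arrays. It shows unequal change, not which member changed, and its size on 1 array cannot be read as relative abundance because the probes differ. The log2 ratio of miR-193 to miR-193b was −1.18, −0.59, −0.27 and −0.83 on the control arrays and −0.19, 0.19, 0.79 and 0.07 on the diabetic arrays. Every diabetic array lay above every control array, although diabetic 1 lay just above control 3. The mean went from −0.72 ± 0.38 to 0.21 ± 0.41 (SD, n = 4), a difference of 0.93 (SE 0.28), or 1.91-fold.

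The log2 ratio of miR-193 to its chromosome 11 neighbour miR-365 was 0.65, 1.59, 2.08 and 1.30 on the control arrays and 1.79, 2.36, 2.66 and 1.97 on the diabetic arrays. Control 3 lay within the diabetic range and the other control arrays beneath it. The means were 1.40 ± 0.60 and 2.20 ± 0.39 (SD, n = 4), a difference of 0.79 (SE 0.36), or 1.73-fold. The log2 ratio of miR-193b to miR-365 was 1.82, 2.18, 2.35 and 2.13 on the control arrays and 1.98, 2.17, 1.87 and 1.90 on the diabetic arrays. These ranges overlapped widely. The means were 2.12 ± 0.22 and 1.98 ± 0.14 (SD, n = 4), a difference of −0.14 (SE 0.13), or 0.907-fold. With probe A_54_P2375, the one for miR-193 detected on every array, the difference was 0.91 and 1.03 against the 2 probes of miR-193b, and 0.78 and 0.80 against the 2 probes of miR-365. Over the pairs of single probes it ran from −0.25 to −0.11 for miR-193b to miR-365.

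**Figure D3:**
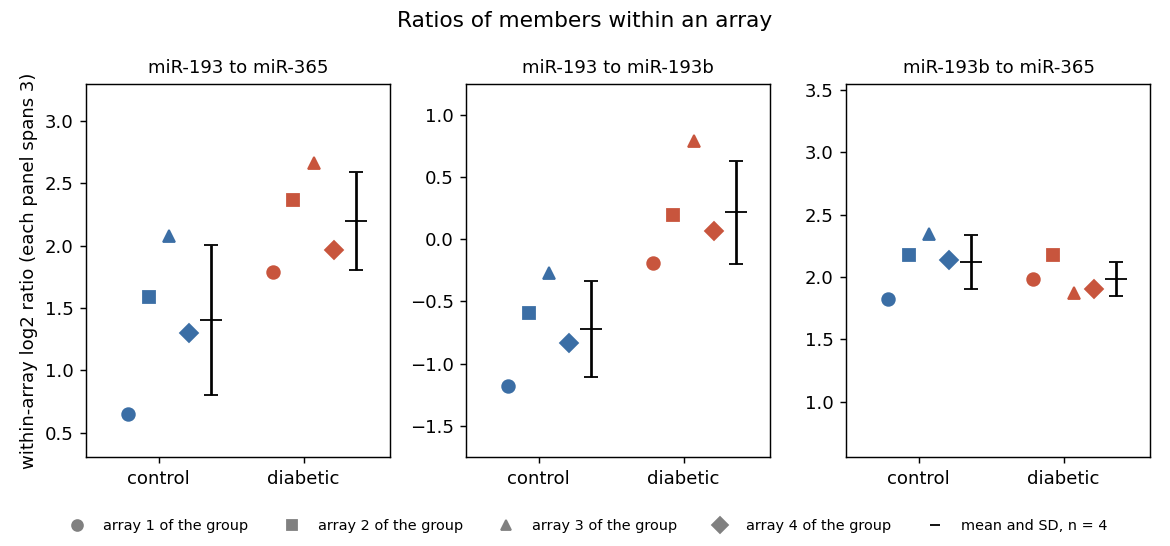
Log2 ratio of 2 members on the same array, for 4 control and 4 diabetic arrays, with points for arrays and a bar with its error for the group mean ± SD. The ratio of miR-193 to miR-193b is higher on all 4 diabetic arrays, whereas that of miR-193b to miR-365 stays between 1.82 and 2.35 over all 8 arrays.

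Whether genomic neighbours had like differences was asked for all tested miRNAs whose hairpins lie close on the same strand. A hairpin gene was found for 103 of the 126 tested miRNAs, and 42 pairs of 49 miRNAs lay within 10 kb. A miRNA with more than 1 hairpin was paired by its nearest one, although the array cannot say which hairpin gave its signal. The gap between the log2 differences of a pair had a median of 0.233 (quartiles 0.128 and 0.439), where all 7875 pairs of tested miRNAs had 0.404 (quartiles 0.179 and 0.786). The sign was the same in 28 of the 42 neighbour pairs, or 66.7%, against 49.9% of all pairs. Within 50 kb there were 58 pairs, with a median gap of 0.269 and 40 pairs, or 69.0%, of the same sign. These pairs share arrays and many share a miRNA, so they are a description and not replicates. Some neighbours also belong to 1 family, such as let-7b and let-7c or miR-29a and miR-29b. Whether probes for 1 family member also bind another was not tested. The part of family likeness in the smaller gap and the shared sign was not tested either.

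miR-193b and miR-365, 4.24 kb apart on chromosome 16, had a gap of 0.14, and 30 of the 42 pairs within 10 kb had a larger one. miR-193 and miR-365, 14.4 kb apart on chromosome 11 and so neighbours only by the wider limit, had a gap of 0.79. Of the 58 pairs within 50 kb, 6 had a larger gap, as did 24.8% of all pairs. miR-193 and miR-193b, which share a seed but no locus, had a gap of 0.93. All 3 members had a positive log2 difference with all 8 arrays, but in the chromosome 11 pair the sizes were unlike.

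Some other neighbour pairs differed by almost nothing and some by more than the members. The smallest gaps within 10 kb were 0.0041 for miR-23a and miR-24, 0.0047 for miR-19b and miR-20b, and 0.016 for miR-127 and miR-337-5p of the imprinted Dlk1-Dio3 cluster. miR-23a has a hairpin in a cluster known to be cut from 1 transcript with a miR-24 hairpin. But miR-24 also neighboured miR-23b, with a gap of 0.28 and unlike signs. miR-19b and miR-20b are of a miR-17 type cluster, but miR-19b also neighboured miR-20a, with a gap of 0.046. The signals of miR-24 and miR-19b cannot be apportioned between these places. The largest gaps within 10 kb were 1.44 for miR-133b and miR-206, both muscle miRNAs, 1.37 for miR-299* and miR-494 and 0.98 for miR-379 and miR-494, all from the Dlk1-Dio3 cluster. A close neighbour in the genome did not always have a like difference on these arrays.

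**Figure D4:**
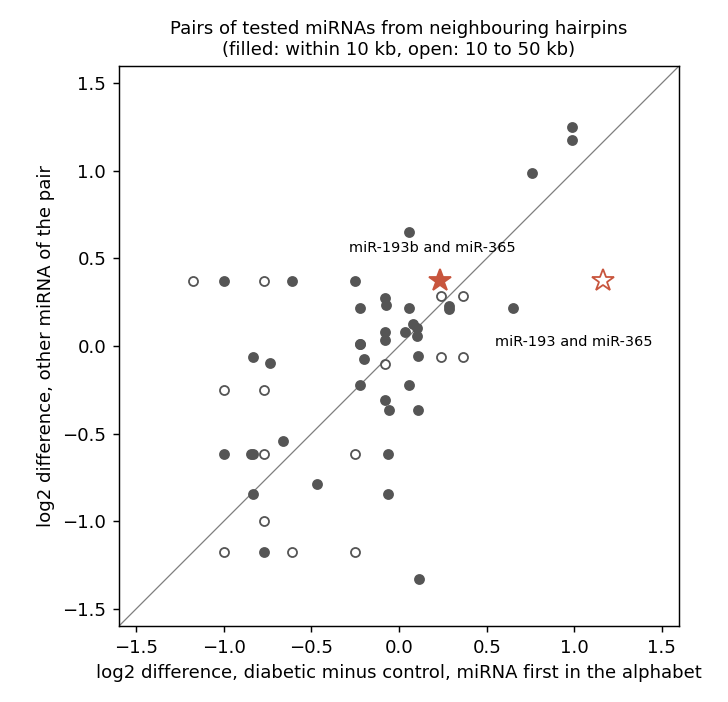
Log2 differences, diabetic minus control, of the 2 miRNAs of each neighbour pair, with the miRNA first in the alphabet on the x axis, filled points for 42 pairs within 10 kb and open points for the other pairs within 50 kb. The diagonal marks equal differences. The pair miR-193b and miR-365 (0.23 and 0.37) lies near it, and miR-193 and miR-365 (1.16 and 0.37) far to its right.

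Likeness of pattern was measured as the Pearson correlation of log2 level over the 8 arrays, among 125 other tested miRNAs. All points share the scaling, the groups and the slide, so r is a description. The miRNAs most like miR-193 were miR-29c (r = 0.96), miR-29b (0.96), miR-101a (0.95), miR-29a (0.93) and miR-29c* (0.93). Their own log2 differences were 1.25 for miR-29c, 0.99 for miR-29b, 1.03 for miR-101a, 0.76 for miR-29a and 1.17 for miR-29c*. With the group means taken out of each miRNA, their r with miR-193 was 0.89, 0.81, 0.79, 0.69 and 0.62 in the same order. miR-365 stood only at rank 31 of this order (r = 0.48) and miR-193b at rank 32 (r = 0.48).

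miR-193b was most like miR-331-3p (r = 0.98), miR-151-5p (0.96), miR-139-5p (0.96), miR-30d (0.95) and miR-133b (0.95). Its neighbour miR-365 stood at rank 10 (r = 0.92). miR-365 was most like miR-99a (r = 0.99), miR-361 (0.98), miR-345-5p (0.97), miR-331-3p (0.96) and miR-133b (0.94), and miR-193b stood at rank 7 of its order. After the group means were taken out of each miRNA, r was 0.92 between miR-193b and miR-365, 0.43 between miR-193 and miR-193b and 0.23 between miR-193 and miR-365. So the scaled levels of miR-193b and miR-365 varied together within the groups as well, while that of miR-193 followed neither closely. This was not particular to the pair. With the muscle miRNA miR-133b, r was then 0.96 for miR-193b and 0.98 for miR-365. Before scaling, the signal of miR-193b was nearly level over the control arrays, at 146 to 156, where that of miR-365 was 28.8 to 41.3. Over the diabetic arrays both unscaled signals were higher on diabetic 1 and 2 than on diabetic 3 and 4. The part of the shared scaling in the r values was not tested. Control 2, the lowest control array by scaled level for both miR-193b and miR-365, is among the 8 arrays used.

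miR-193b and miR-365 are best known in brown and beige fat cells, so the other miRNAs linked to those cells were set beside them. Of 27 such miRNAs, 26 were on the array, 22 were detected at least once and 21 were tested. The limma threshold was passed by 1 of them in the higher direction, miR-193 itself, and by 0 in the lower, where 4.76% and 0% of all tested miRNAs passed. The log2 difference was above 0 for 15 and below 0 for 6, with a median of 0.13, where all 126 tested miRNAs had 58 above 0, 68 below 0 and a median of −0.06. The 15 include miR-193, miR-193b and miR-365, which were chosen with their differences known. The largest differences were those of miR-193, miR-26a (0.41, SE 0.21) and miR-365. The smallest were −1.33 (SE 0.44) for miR-206, −0.54 (SE 0.31) for miR-214 and −0.36 (SE 0.36) for miR-93, and none of these 3 passed. The muscle miRNAs miR-1, miR-133a, miR-133b and miR-206 are on this list too. Of these, miR-206 had the lowest log2 level, 0.94 on control and −0.39 on diabetic arrays, where miR-133a had 4.45 and 4.55.

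Lists of miRNAs linked to other cell types that muscle tissue holds were counted in the same way. A listed miRNA need not be particular to its cell type, and muscle fibres may hold it too, so the sums do not measure cell content. In each list 0 passed, where 4.76% of all tested miRNAs passed in the higher direction and 0% in the lower. With so few miRNAs per list, nothing is read from these counts. Of 8 adipocyte miRNAs 6 were tested, with a median log2 difference of −0.06 and a summed linear level of 1.13 to 2.08 on control and 1.52 to 2.09 on diabetic arrays. miR-146b and miR-335-5p of this list were not detected, and its leading members miR-378 and miR-196a had log2 differences of 0.32 (SE 0.29) and 0.25 (SE 0.23). These 2 were the only tested members above 0. The other 4 were below 0, from −0.37 for miR-107 to −0.03 for miR-143. Of 6 leukocyte miRNAs 3 were tested, all with negative log2 differences and a median of −0.80, and miR-150 was not detected. The sum over the 5 detected at least once was 0.396 to 2.08 on control and 0.225 to 0.683 on diabetic arrays. It includes the untested miR-142-3p, detected on 3 control and 0 diabetic arrays, and miR-142-5p, detected on 1 and 0. The leading members of the list were miR-223 (−1.29, SE 0.62) and miR-342-3p (−0.80, SE 0.23). The part of these cells in the difference of miR-193 was not tested.

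The 3 tested fibroblast miRNAs of 5 listed also had negative log2 differences, with a median of −0.54 and a sum of 0.376 to 0.783 on control and 0.361 to 0.417 on diabetic arrays. miR-145 was not detected, and the leading members were miR-199b (−0.45) and miR-214. Of 3 miRNAs listed as erythroid 2 were tested, miR-451 (−0.33) and miR-16 (−0.10), of which miR-16 is not particular to those cells. The sum of the list was 1.20 to 2.78 on control and 0.962 to 1.78 on diabetic arrays. It includes the untested miR-144, detected on 1 control and 0 diabetic arrays. The endothelial miR-126-3p had a log2 difference of −0.07. Its level on the scaled linear scale was 1.59 to 2.65 on control and 1.79 to 2.45 on diabetic arrays, and miR-126-5p was not detected.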

How the data were processed

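The deposited values are spot intensities, with background subtracted by Feature Extraction 10.5 and no scaling between arrays, per the file headers. A single slide held the arrays, and it was scanned once. Deposited flags of 0 or 1 mark outliers and detection, per the file headers.

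Of 12493 spots per array, 953 control and 200 viral spots were left out of the tests. Outlier spots were dropped, spots averaged per probe, and each array divided by its 75th percentile, for which the 152 probes with detection on every array were used. A probe was detected where at least 50% of its spots were well above background. Probes were averaged per miRNA, set to at least 0.0162, which is percentile 1 of the detected levels, and converted to log2. At the floor lay 24 of 1008 tested values, and 0 spots were saturated. limma 3.58.1 in R 4.3.3 compared the groups over 126 miRNAs, with Benjamini-Hochberg adjustment at 0.05, after a test on simulated data. Figures were drawn with matplotlib 3.10.9.

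The members and lists were chosen with earlier results of these data known. Beside the members, the text names the 5 miRNAs most like each, the 3 neighbour pairs at each end, the 3 fat cell miRNAs at each end and the 2 brightest markers per list. Alternatives covered scaling, normexp background, probe summary, floor, filter, replicate block and left-out arrays. The files have no mean signal, so normexp used the median signal (offset 50) in place of the planned one.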

Additional observations from a re-analysis of the deposited data

Results flagged for a closer look

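On control 2 the log2 level of miR-193b was −2.01, and its gap to the next control array took up 0.862 of the range of the 4 control arrays, the only such gap among 12 groups of values examined. Chance marks about 5% of groups of this kind. The unscaled signal of miR-193b on control 2 was 153, within the 146 to 156 of the control arrays, and control 2 was the brightest array.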

How the results depend on the processing

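With every alternative run, the difference of miR-193 was positive (18 of 18, 0.79 to 1.49) and so was that of miR-365 (0.02 to 0.69), while miR-193b ran from −0.07 to 0.55. With single arrays left out, miR-193 had 0.98 to 1.36. Its value of 0.79 came with normexp, whose offset shrinks differences of dim miRNAs by construction. miR-193 passed in 10 of 18 fits, which shows dependence on the processing and is no support, since it was chosen on this contrast. It did not pass without scaling, without both control 2 and diabetic 4 (an alternative chosen after seeing the data), or without any single array except control 3 or control 4; these last fits have fewer arrays. Apart from the 18 fits, it did not pass among all 567 miRNAs without a filter (limma adjusted p = 0.409), but did among the 95 detected on all 8 arrays. Relative to the median of all tested miRNAs, which moved from −0.06 to 0.26 with the percentile over all mouse probes, miR-193 had 1.22 in both. Over 13 alternatives each, the change in ratio was 0.54 to 1.02 for miR-193 to miR-365, 0.61 to 1.08 for miR-193 to miR-193b and −0.24 to −0.0092 for miR-193b to miR-365. The ratios to and from miR-193b were added after seeing the data. The median gap between neighbours was 0.233 within 10 kb and 0.269 within 50 kb.

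Of all 126 tested miRNAs, 6 were higher and 0 lower with limma. The higher count was 0 without scaling, 2 without a filter, 3 without control 2 and diabetic 4, and 2 to 7 with single arrays left out. The lower count was 1 with the percentile over all mouse probes or the total gene signal, 2 with the median, quantile normalization, the brightest probe or detection on all 8 arrays, 3 with normexp, and 0 to 3 with single arrays left out. With the replicate block it was 3, which cannot move a difference of group means in this balanced design (miR-193 had 1.16); deviations of same-numbered arrays correlated at 0.21, 0.08, 0.51 and −0.29, so the numbers were not taken as pairs. The cause of these changes was not tested. Signal over background limits miR-193* and probe A_54_P2374.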

Other observations

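Replicate numbers match slide columns. The order of the 4 columns by the within-array log2 ratio was the same in both groups, with column 1 lowest, then 4, 2 and 3, for miR-193 to miR-193b and also for miR-193 to miR-365. Both ratios share miR-193. The difference between the diabetic and the control array of a column was 0.99, 0.78, 1.06 and 0.90 in columns 1 to 4 for miR-193 to miR-193b, with an SD of 0.12 over columns, and 1.14, 0.78, 0.58 and 0.67 for miR-193 to miR-365, with an SD of 0.25. For miR-193b to miR-365 the order differed between the groups. This was noticed after the values were seen and was not tested.

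Both strands of 1 hairpin were tested in 7 pairs of other miRNAs. Their log2 differences had a median gap of 0.162, and 5 of the 7 pairs had the same sign.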
